A study of Homo sapiens with 9 samples.

Results

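Desmosomes are the junctions that anchor the keratin filaments of neighbouring epithelial cells to each other. The 10 genes described here encode their main parts, and all 10 were found by symbol among the 56609 symbols of the deposited expression table. They are the cadherins DSG2, DSG3, DSC2 and DSC3, the armadillo proteins JUP, PKP1, PKP2 and PKP3, the filament linker DSP, and the tetraspan protein PERP. Values are TPM, a length-normalised share of a library. Of the 10, 9 averaged 1 TPM or more over all samples and were tested, and PKP1 lay under that level.

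Desmogleins and desmocollins are calcium-dependent cadherins that bind between cells. Inside the cell their tails hold plakoglobin (JUP) and plakophilins, which in turn hold desmoplakin (DSP), and DSP binds keratin filaments. Extracellular calcium is known to drive desmosome assembly in cultured epithelial cells, and TGF-beta is known as an inducer of epithelial-mesenchymal transition, in which such junctions can be lost. In stratified epithelia DSG3, DSC3 and PKP1 are typical of basal and suprabasal cells, while DSG2, DSC2 and PKP2 are widespread and also occur in simple epithelia and heart muscle.

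RNA was sequenced from MCF10A, an established, non-tumorigenic human breast epithelial cell line. Samples numbered 9, with 3 in each of 3 groups. The high calcium group received 10 mM calcium together with ionomycin, a calcium ionophore whose dose is labelled as 1 mM, for 16 h. No group received either agent alone, so calcium and ionomycin cannot be told apart. The TGFb3 group received 10 nM transforming growth factor beta 3 for 16 h. Controls were untreated, and the labels mention neither a vehicle nor a time for them. All 3 groups share a serum-containing medium with EGF, insulin, hydrocortisone and cholera toxin. The labels do not say that replicates were separate cultures, so the p-values speak only to sample spread that may be of technical origin.

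Every TPM column sums to 1000000, so depth is unknown and no counting interval is given. The summed level of 8 epithelial markers was 3390 to 3420 TPM in high calcium, 2000 to 2200 TPM in TGFb3 and 2140 to 2310 TPM in controls, and KRT5 made up most of it, at 1801, 1168 and 1252 TPM on average in those groups. All 8 were called higher in high calcium against control (limma adjusted p under 0.05), where 46.1% of all tested symbols were. After the median ratio rescaling described below 7 were, where 30.2% of symbols were. In TGFb3 single markers moved apart from the sum. Against control, 4 of the 8 were called higher in TGFb3 and 2 lower (limma adjusted p under 0.05). Of all tested symbols 26.5% were called higher there and 33.1% lower. The 4 were CDH1, KRT14, KRT8 and TP63, at log2 differences of 0.94, 1.46, 0.58 and 0.53. KRT14, at 9.8, 2.26 and 10.6 TPM in controls, did not keep its call under every alternative processing (range of limma adjusted p 0.0095 to 0.069). EPCAM and KRT18 were the 2 lower ones, at -1.31 and -0.51. EPCAM averaged 397.4 TPM in high calcium, 118.4 TPM in TGFb3 and 294.3 TPM in controls, and ESRP1 averaged 21.04 TPM in high calcium but only 0.7441 TPM in TGFb3 and 0.6667 TPM in controls. Of 7 fibroblast markers, COL1A2, COL3A1, LUM, PDGFRB and THY1 were under 1 TPM in every sample, while the list sum, carried by COL1A1 and DCN, was 9.94 to 12.5 TPM in high calcium, 28.3 to 31.9 TPM in TGFb3 and 2.6 to 3.52 TPM in controls. The leukocyte genes PTPRC and CD3E were listed at 0 in every sample, while the sum of 4 leukocyte markers, carried by CD68 and CD14, was 53 to 73.9 TPM in high calcium, 10.8 to 15.6 TPM in TGFb3 and 19.5 to 23.4 TPM in controls. All 3 endothelial markers stayed under 1 TPM, and the 3 melanocyte markers summed to at most 1.02 TPM. MALAT1 and NEAT1, nuclear RNAs read here as a sign of RNA quality, summed to 467 to 539 TPM in high calcium, 220 to 247 TPM in TGFb3 and 152 to 239 TPM in controls. RNA of the mitochondrial genome took 11.1 to 11.9% of TPM in high calcium, 22.2 to 23.3% in TGFb3 and 21.7 to 23.3% in controls. The median log2 difference of all 13968 tested symbols was 0.22 for high calcium against control, 0.27 for high calcium against TGFb3 and -0.06 for TGFb3 against control. A median ratio rescaling, which removes that shift, lowers each high calcium difference by about that median, and its value is given wherever it ends a call or turns a direction. The part of the marker and nuclear RNA levels in the results was not tested, and that of the mitochondrial share only by leaving those genes out. In bulk RNA, fewer cells with a transcript and less of it per cell cannot be told apart.

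Levels of the 10 genes spanned a wide range within each group. PERP was the highest member in all 3 groups, at 623.5 ± 10.1 TPM in high calcium, 654.5 ± 6.77 TPM in TGFb3 and 398 ± 6.87 TPM in controls (mean ± SD, n = 3 each). In controls DSP, DSG2 and DSG3 followed, then JUP and DSC3, whose samples overlapped, then PKP2, PKP3 and DSC2. High calcium moved DSG3 to the place behind PERP, at 330.4 to 331.3 TPM, just above DSP at 321.3 to 327.3 TPM. In TGFb3 samples JUP and DSG3 overlapped, as did PKP2 and PKP3, and DSC2 stood above both plakophilins. PKP1 was the lowest member in every group.

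**Figure D1:**
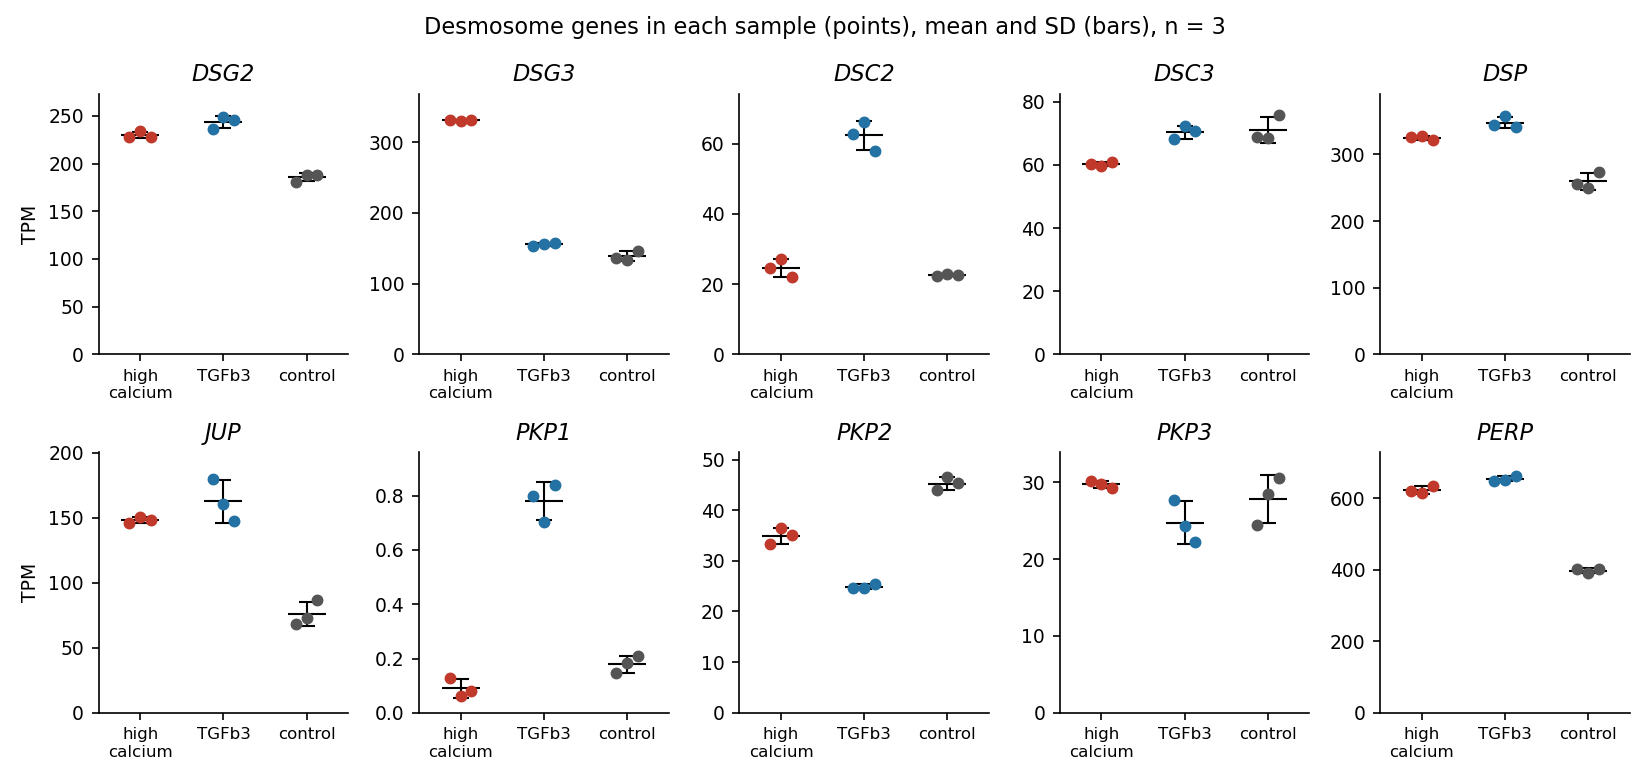
TPM of each desmosome gene (vertical axes start at 0 and differ between panels) in the 3 samples of each group, with the mean and SD. DSG3 was set apart in high calcium (330.4 to 331.3 TPM), DSC2 in TGFb3 (57.9 to 66.3 TPM), and JUP and PERP lay above the controls in both treatments.

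Promoter sequence from RefSeq (GRCh38.p14, which shares its primary assembly with the hg38 build of the files) was matched to 8 of the 10 genes in 10 windows. The 250 bases before the annotated start are shown for 5 genes, chosen because DSG3 and DSC2 each moved most under a different treatment, DSG2 and DSP had similar differences under both, and PERP was the most abundant member. Capitals mark matches on either strand to 5 short motifs. For AP-1 the letters searched were TGANTCA. An E-box of the kind bound by SNAI and ZEB repressors was searched as CACCTG. The SMAD box was CAGAC, and the box named for its own letters was CCAAT. Grainyhead factors were searched as AACCGGTT. No window printed here holds overlapping matches of different motifs.
DSG3, chr18:31447491-31447740, plus strand: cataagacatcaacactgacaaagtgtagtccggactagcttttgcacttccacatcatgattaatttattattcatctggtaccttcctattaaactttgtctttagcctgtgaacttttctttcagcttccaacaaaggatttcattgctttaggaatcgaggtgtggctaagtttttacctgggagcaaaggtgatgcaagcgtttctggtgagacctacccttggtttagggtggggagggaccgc
DSC2, chr18:31102422-31102671, minus strand: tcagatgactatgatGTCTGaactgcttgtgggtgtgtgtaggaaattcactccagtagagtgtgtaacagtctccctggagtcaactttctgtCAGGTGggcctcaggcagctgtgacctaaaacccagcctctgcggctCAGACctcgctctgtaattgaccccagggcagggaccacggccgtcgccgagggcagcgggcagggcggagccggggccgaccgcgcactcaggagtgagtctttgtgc
DSG2, chr18:31497927-31498176, plus strand: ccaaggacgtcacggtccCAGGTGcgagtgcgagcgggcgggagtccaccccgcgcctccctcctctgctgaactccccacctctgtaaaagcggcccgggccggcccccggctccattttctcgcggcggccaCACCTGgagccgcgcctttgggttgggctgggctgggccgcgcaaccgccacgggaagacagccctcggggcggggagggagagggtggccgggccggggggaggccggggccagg
DSP, chr6:7541421-7541670, plus strand: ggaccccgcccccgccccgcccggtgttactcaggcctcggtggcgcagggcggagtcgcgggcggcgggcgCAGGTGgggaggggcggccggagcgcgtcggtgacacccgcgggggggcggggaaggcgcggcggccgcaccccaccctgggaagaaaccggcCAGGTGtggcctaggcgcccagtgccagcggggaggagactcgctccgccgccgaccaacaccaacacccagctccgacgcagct
PERP, chr6:138107420-138107669, minus strand: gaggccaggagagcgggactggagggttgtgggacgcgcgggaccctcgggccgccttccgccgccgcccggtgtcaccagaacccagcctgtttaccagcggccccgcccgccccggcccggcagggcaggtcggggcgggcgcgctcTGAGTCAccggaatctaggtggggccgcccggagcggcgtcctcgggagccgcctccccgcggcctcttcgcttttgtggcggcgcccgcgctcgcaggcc
The CACCTG letters occurred in 4 of the 10 member windows, those of DSG2 and DSP, the first of 2 DSC2 windows and the second of 2 JUP windows, and in 17.5% of all 35116 windows of the same length. DSG2 and DSP each held this E-box at 2 places, 232 and 116 bases before the RefSeq start in DSG2 and 178 and 85 bases in DSP. GENCODE release 29 starts both genes further upstream, at 31498043 for DSG2 and 7541575 for DSP, so the nearer match of each lies inside the gene by that annotation. By the same annotation the second JUP window, chr17:41785977-41786226, lies wholly inside JUP, and the second DSC2 window wholly inside DSC2. The TGANTCA letters occurred in 1 member window, that of PERP, 101 bases before the start, and in 6.57% of all windows. CAGAC was found in the PKP1 window and the first DSC2 window, against 38% of all windows, and CCAAT in the first JUP window and that of DSC3, against 32%. The GENCODE starts of DSC3, PKP1 and PERP, at 31042815, 201283452 and 138107511, also lie inside their windows. Those of DSC2 and JUP, at 31102522 and 41786931, lie inside the first window of each. By these starts the JUP CCAAT match and the PKP1 match 24 bases before the RefSeq start lie inside the gene. The matches in the DSC3, PERP and first DSC2 windows lie before it. The second DSC2 window, chr18:31101261-31101510, held no match. AACCGGTT was in no member window and in 0.117% of all windows. The DSG3 window held none of these letters and was the poorest in G and C, at 42.8%, where the DSP window had 78%. Such matches describe letters only, and no binding was measured.

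The desmogleins are the larger cadherin class in these cells, and their 2 expressed members answered the treatments differently. DSG3 (ENSG00000134757.4, chromosome 18, 31447795 to 31478702, hg38), the pemphigus vulgaris antigen of stratified epithelium, had 331.1, 330.4 and 331.3 TPM in high calcium, 152.5, 156.0 and 157.5 TPM in TGFb3, and 136.2, 133.0 and 146.6 TPM in controls. Every high calcium sample was above every other sample, and the TGFb3 samples lay just above the controls without overlap. High calcium raised DSG3 by log2 1.25 ± 0.041 against control (limma standard error; adjusted p = 5.9e-09), a 2.38-fold change of TPM + 1, and this was rank 928 from the highest of 13968 symbols. TGFb3 raised it by only 0.16 ± 0.041 (limma adjusted p = 0.0057), and high calcium stood 1.09 ± 0.041 above TGFb3 (limma adjusted p = 1.3e-08).

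DSG2 (ENSG00000046604.12, chromosome 18, 31498043 to 31549008), the desmoglein found in all desmosome-bearing tissues, had 227.9, 234.2 and 228.2 TPM in high calcium, 236.3, 248.6 and 245.5 TPM in TGFb3, and 181.2, 187.8 and 188.4 TPM in controls. Both treated groups lay wholly above the controls. The log2 difference was 0.31 ± 0.035 in high calcium (limma adjusted p = 3.6e-05) and 0.39 ± 0.035 in TGFb3 (limma adjusted p = 6.8e-06). The high calcium difference was near the median of all genes and was not called after median ratio rescaling, at log2 0.07 (limma adjusted p = 0.12, range over all alternatives 3.1e-05 to 0.12). The other desmogleins were absent or nearly so. DSG1, the desmoglein of upper epidermis, was listed at 0 in 8 samples and at 0.0735 TPM in TGFb3 1, and DSG4, a hair follicle desmoglein, did not exceed 0.0454 TPM.

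The desmocollins also differed from each other, with DSC2 higher in TGFb3 and DSC3 lower in high calcium. DSC2 (ENSG00000134755.14, chromosome 18, 31058840 to 31102522), the widespread desmocollin, had 24.6, 27.1 and 22.1 TPM in high calcium, 62.8, 66.3 and 57.9 TPM in TGFb3, and 22.2, 22.9 and 22.7 TPM in controls. All TGFb3 samples were far above the rest, and the high calcium samples overlapped the controls. DSC2 rose by log2 1.42 ± 0.076 in TGFb3 (limma adjusted p = 1.7e-07), a 2.68-fold change of TPM + 1 and rank 440 from the highest. In high calcium its difference was 0.11 ± 0.076 (limma adjusted p = 0.22, 95% interval -0.06 to 0.28), which turned to -0.12 after median ratio rescaling. High calcium against TGFb3 differed by -1.31 ± 0.076 (limma adjusted p = 2.5e-07).

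DSC3 (ENSG00000134762.16, chromosome 18, 30990008 to 31042815), the desmocollin of basal layers, had 60.2, 59.8 and 61 TPM in high calcium, 68.2, 72.2 and 70.7 TPM in TGFb3, and 68.7, 68.5 and 75.7 TPM in controls. High calcium samples lay under both other groups, and TGFb3 samples overlapped the controls. DSC3 fell by 0.23 on the log2 scale in high calcium (standard error 0.048, limma adjusted p = 0.002), and by 0.47 after median ratio rescaling, which is over 1.5 times the deposited value. Its TGFb3 difference was -0.01 ± 0.048 (limma adjusted p = 0.86, 95% interval -0.12 to 0.10). DSC1, the desmocollin of upper epidermis, was listed at 0 in all 9 samples.

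These cadherin genes lie side by side. GENCODE release 29 places DSC3, DSC2, DSC1, DSG1, DSG4, DSG3 and DSG2, in that order, as the only 7 protein-coding genes in 559 kb of chromosome 18, the desmocollins on the minus strand and the desmogleins on the plus strand. Within this stretch DSG3 had the widest difference in high calcium and DSC2 the widest in TGFb3, and the 3 genes between them stayed at or near 0. DSG2 overlaps the antisense gene DSG2-AS1, which did not exceed 0.0263 TPM, and DSC2 overlaps the antisense gene DSCAS, which did not exceed 0.6703 TPM.

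Shares within a subfamily do not depend on a library's scaling factor. DSG3 made up 59.2, 58.5 and 59.2% of desmoglein TPM (DSG2 plus DSG3) in high calcium, 39.2, 38.6 and 39.1% in TGFb3, and 42.9, 41.5 and 43.8% in controls. DSG3 was thus the major desmoglein in every high calcium sample and the minor one in all others. DSC3 made up 71.1 ± 2.3% of desmocollin TPM (DSC2 plus DSC3) in high calcium, 53.1 ± 1.7% in TGFb3 and 75.8 ± 0.99% in controls (SD, n = 3 each), with no overlap between any of the groups. Desmogleins took 86.9 ± 0.2% of the TPM of the 4 cadherins in high calcium, 75 ± 0.69% in TGFb3 and 77.6 ± 0.28% in controls. Summed cadherin RNA was 646 ± 4.9 TPM in high calcium, 532 ± 12 TPM in TGFb3 and 418 ± 14 TPM in controls. The added cadherin RNA was mostly DSG3 in high calcium, and DSG2 and DSC2 in TGFb3. With 3 samples against 3 an exact permutation test cannot go below 0.1, so these shares are given without a test.

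**Figure D2:**
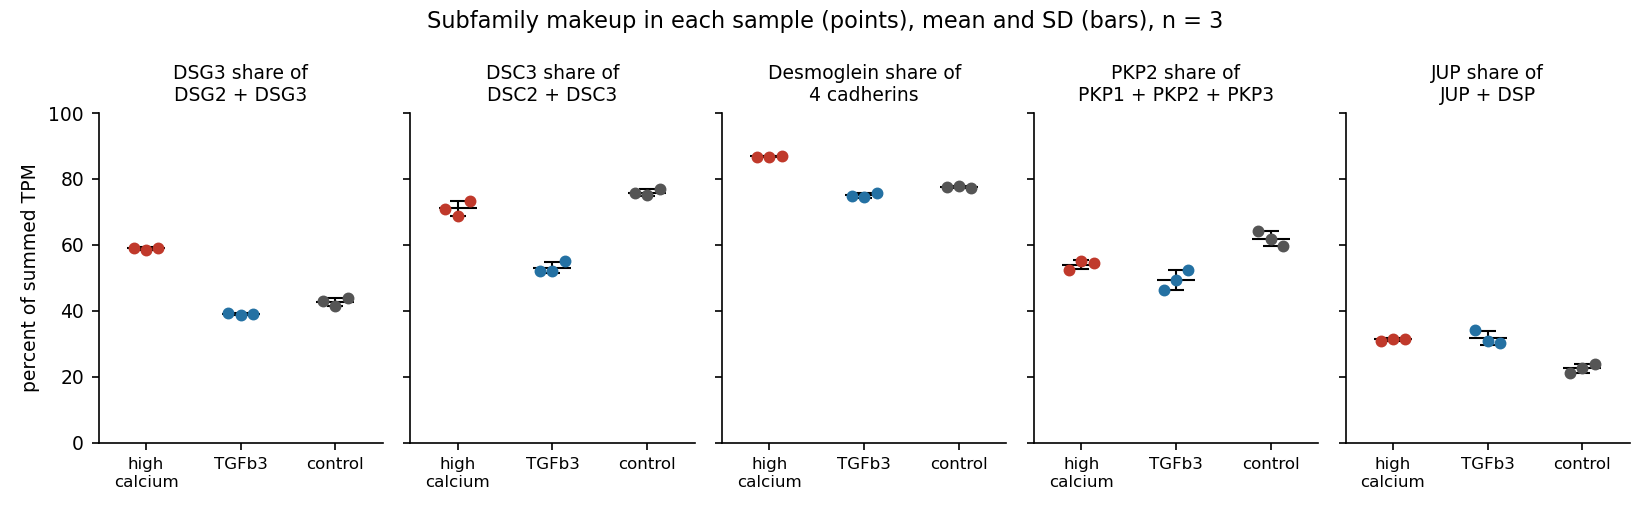
Percent of summed TPM taken by a subfamily member in each sample, with mean and SD. The DSG3 share of desmogleins was 58.5 to 59.2% in high calcium against 38.6 to 43.8% elsewhere, and the DSC3 share of desmocollins was 52.1 to 55% in TGFb3 against 68.8 to 76.9% elsewhere.

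Of the armadillo proteins that link cadherin tails to DSP, JUP rose in both treatments and PKP2 fell in both. JUP (ENSG00000173801.16, chromosome 17, 41754604 to 41786931) encodes plakoglobin, a relative of beta-catenin that also joins adherens junctions. It had 145.9, 150.8 and 148.6 TPM in high calcium, 180.2, 160.4 and 147.4 TPM in TGFb3, and 68.4, 72.8 and 86.5 TPM in controls. All 6 treated samples were above the highest control, and the treated groups overlapped each other. The rise was log2 0.97 ± 0.09 in high calcium (limma adjusted p = 7.6e-06) and 1.09 ± 0.09 in TGFb3 (limma adjusted p = 3.1e-06). Between treatments the difference was -0.13 ± 0.09 (limma adjusted p = 0.24, 95% interval -0.33 to 0.07), and -0.41 after median ratio rescaling (limma adjusted p = 0.0015, range over all alternatives 0.0015 to 0.64).

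PKP2 (ENSG00000057294.14, chromosome 12, 32790745 to 32896840), the most widespread plakophilin and one mutated in arrhythmogenic cardiomyopathy, had 33.3, 36.4 and 35.1 TPM in high calcium, 24.7, 24.6 and 25.5 TPM in TGFb3, and 43.9, 46.5 and 45.4 TPM in controls. None of the 3 groups overlapped. PKP2 fell by 0.36 on the log2 scale in high calcium (standard error 0.05, limma adjusted p = 0.00012), or 0.60 after median ratio rescaling, over 1.5 times the deposited value. In TGFb3 it fell by 0.84 (standard error 0.05, limma adjusted p = 3.5e-07). High calcium was above TGFb3 by 0.47 ± 0.05 (limma adjusted p = 1.8e-05), or 0.19 after rescaling. PKP2 overlaps a sense intronic gene, AC087588.2, that did not exceed 1.0077 TPM.

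PKP3 (ENSG00000184363.9, chromosome 11, 392614 to 404908), a plakophilin of most epithelia, averaged 29.76 ± 0.41 TPM in high calcium, 24.75 ± 2.81 TPM in TGFb3 and 27.85 ± 3.16 TPM in controls. Neither treatment was called against control, with log2 differences of 0.10 ± 0.094 in high calcium (limma adjusted p = 0.39, 95% interval -0.11 to 0.31) and -0.16 ± 0.094 in TGFb3 (limma adjusted p = 0.16, 95% interval -0.37 to 0.05). The TGFb3 difference was -0.25 and called without control replicate 1 or without TGFb3 replicate 1. High calcium against TGFb3 was called at 0.26 ± 0.094 (limma adjusted p = 0.031), a call lost under all 3 rescalings, with no filter, with the replicate block (adjusted p = 0.059, range over all alternatives 0.0095 to 0.88) and without any 1 of high calcium 1, 2 or 3 or TGFb3 2 or 3.

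PKP1 (ENSG00000081277.12, chromosome 1, 201283452 to 201332993), the plakophilin of stratified epidermis, was at 0.13, 0.0616 and 0.0785 TPM in high calcium, 0.8, 0.705 and 0.839 TPM in TGFb3, and 0.146, 0.185 and 0.208 TPM in controls. The TGFb3 samples stood above all others, at a level that was still under 1 TPM. In the fit with no filter on low values its log2 difference was 0.59 ± 0.053 in TGFb3 (limma adjusted p = 6.6e-05) and -0.11 ± 0.053 in high calcium (limma adjusted p = 0.14), a scale that understates changes of low genes. Among the plakophilins PKP2 took 53.9 ± 1.4% of summed TPM in high calcium, 49.5 ± 3.1% in TGFb3 and 61.8 ± 2.3% in controls, and PKP1 took 1.55 ± 0.16% in TGFb3. PKP4, a related protein found at desmosomes and adherens junctions, had 44.4, 44.4 and 49.1 TPM in TGFb3, against 64.6, 68.1 and 60.6 TPM in controls, and fell by 0.48 on the log2 scale (standard error 0.061, limma adjusted p = 8.1e-05). In high calcium PKP4 had 68.9, 62.4 and 66.8 TPM and was not called, with a difference of 0.04 ± 0.061 that turned to -0.20 and was called after median ratio rescaling (limma adjusted p = 0.024, range over all alternatives 0.024 to 0.96).

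DSP (ENSG00000096696.13, chromosome 6, 7541575 to 7586717) encodes desmoplakin, the plakin that ties the plaque to keratin filaments. It had 325.7, 327.3 and 321.3 TPM in high calcium, 344.6, 357.0 and 341.0 TPM in TGFb3, and 256.2, 249.4 and 274.0 TPM in controls. The treated groups lay above the controls, with TGFb3 wholly above high calcium. DSP had a log2 difference of 0.32 ± 0.041 in high calcium (limma adjusted p = 7.5e-05), which was 0.08 and no longer called after median ratio rescaling (limma adjusted p = 0.093, range over all alternatives 3.5e-05 to 0.093). In TGFb3 it rose by 0.42 ± 0.041 (limma adjusted p = 1.2e-05). JUP took 31.4 ± 0.38% of JUP plus DSP TPM in high calcium, 31.8 ± 2.2% in TGFb3 and 22.6 ± 1.5% in controls, so plakoglobin RNA gained on desmoplakin RNA in both treatments without overlap with the controls.

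PERP (ENSG00000112378.11, chromosome 6, 138088505 to 138107511), a target of p53 and p63 that is required for desmosome assembly in mouse skin, had 620.7, 615.2 and 634.7 TPM in high calcium, 649.1, 652.3 and 662.1 TPM in TGFb3, and 402.0, 390.1 and 402.0 TPM in controls. Every treated sample was above every control, and TGFb3 lay above high calcium without overlap. The rise was log2 0.65 ± 0.032 in high calcium (limma adjusted p = 9.5e-08), or 0.41 after median ratio rescaling, and 0.72 ± 0.032 in TGFb3 (limma adjusted p = 5.6e-08). PERP was rank 202 by mean TPM of 56609 symbols in high calcium, 174 in TGFb3 and 297 in controls. CDSN, the adhesive protein of corneodesmosomes, did not exceed 0.115 TPM in any sample.

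In high calcium against control, DSG2, DSG3, DSP, JUP and PERP were called higher, 5 of the 9 tested members, where 46.1% of all symbols were called higher. DSC3 and PKP2 were called lower, 2 of 9, against 17% of all symbols. The median log2 difference of the 9 was 0.31 beside 0.22 for all symbols. After median ratio rescaling 3 members were higher and 2 lower, with a median of 0.07 beside 0.00, where 30.2% of symbols were higher and 30% lower. The samples did not overlap for 7 of the 9, against 69% of all symbols. These shares were near those of all genes, and the widest differences among the members were those of DSG3 and JUP.

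In TGFb3 against control, the same 5 genes and DSC2 were called higher, 6 of 9, where 26.5% of all symbols were called higher. PKP2 was called lower, 1 of 9, against 33.1% of all symbols. The median log2 difference was 0.39 beside -0.06 for all symbols, and it was 0.44 beside -0.01 after median ratio rescaling, with the same 6 and 1 calls beside 29.3% of symbols higher and 30.4% lower. Samples did not overlap for 7 of the 9, against 63.8% of all symbols. Both comparisons share the 3 control samples.

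In high calcium against TGFb3, DSG3, PKP2 and PKP3 were called higher, 3 of 9, where 50.4% of all symbols were called higher. DSC2 and DSC3 were called lower, 2 of 9, against 16.2%. Values of DSG2, DSP and PERP were -0.08 ± 0.035, -0.10 ± 0.041 and -0.07 ± 0.032, and limma did not call them. After median ratio rescaling DSG2, DSP, JUP and PERP were called lower as well, which gave 2 higher and 6 lower of 9, where 30% of symbols were higher and 30.3% lower. Samples did not overlap for 8 of the 9, against 71.2% of all symbols. Whether these 4 genes were called therefore rests largely on the scaling, but not on it alone. On the deposited scale 3 rather than 2 members were called lower in 3 alternatives. These used only the compared groups, or left out control replicate 3 or TGFb3 replicate 1. Values of DSG2, DSP, JUP and PERP were below 0 in all 19 alternatives. They lay between -0.37 and -0.07 for DSG2, -0.39 and -0.08 for DSP, -0.41 and -0.05 for JUP, and -0.36 and -0.06 for PERP. DSG3 and DSC2 kept their direction and call in all 19 alternatives.

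**Figure D3:**
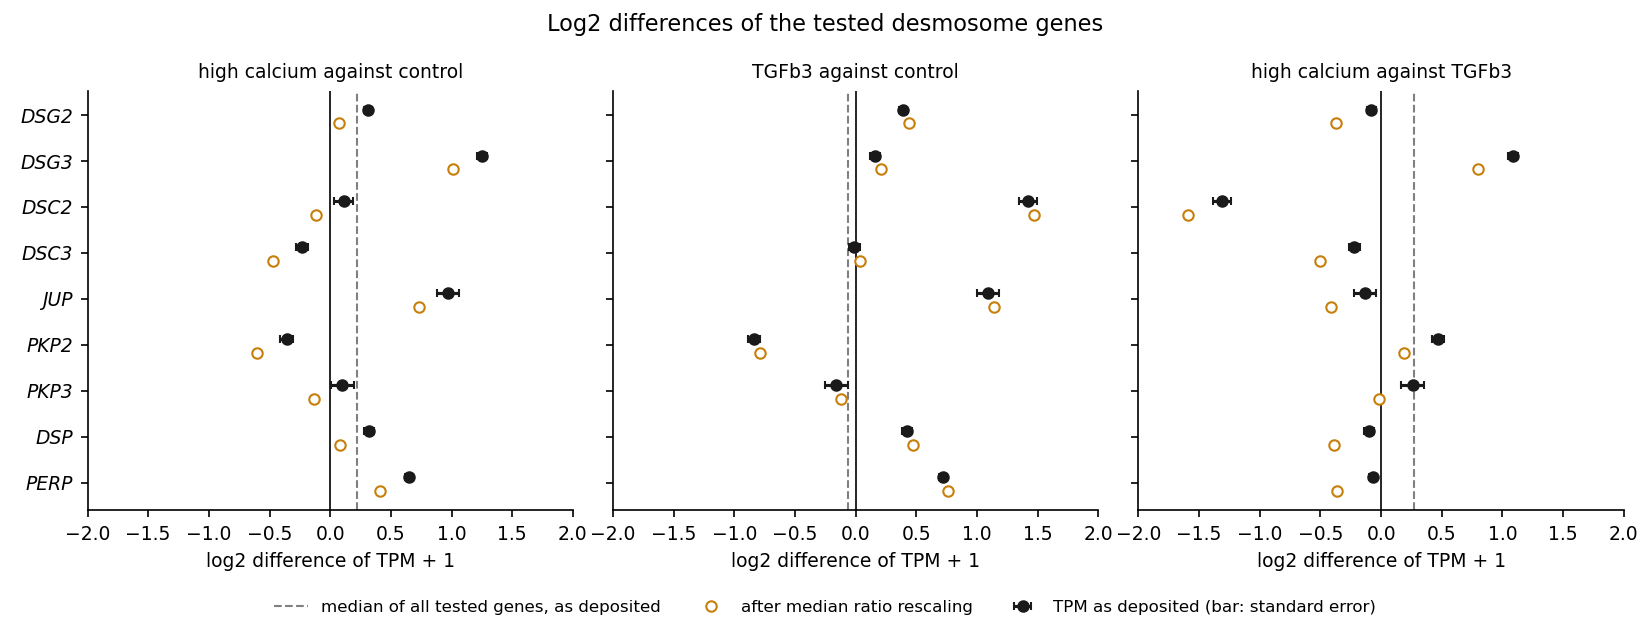
Log2 differences of TPM + 1 with limma standard errors for the 9 tested desmosome genes, as deposited (filled) and after median ratio rescaling (open), beside the median of all tested genes (dashed). DSG3 stands out in high calcium at 1.25, DSC2 in TGFb3 at 1.42, and JUP and PERP lie above 0 against the control in both.

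The keratins that attach to desmosomes had a larger median than the members in both treatments. Of 11 keratins 10 were tested, and in high calcium 9 rose and 1 fell, with a median log2 difference of 0.84 beside 0.22 for all symbols. Of all symbols 46.1% were called higher and 17% lower in high calcium, and 26.5% higher and 33.1% lower in TGFb3, which are the shares to set beside the counts of every list below. After median ratio rescaling they were 30.2% and 30% in high calcium. The lower keratin was KRT15, at -0.42 ± 0.15 (limma adjusted p = 0.037), which was not called without control replicate 1 or 3 or high calcium replicate 2 or 3 (range of adjusted p over all alternatives 0.0039 to 0.14). KRT16 and KRT17, keratins of stressed epithelium, rose by 1.90 ± 0.11 and 1.47 ± 0.067 in high calcium (limma adjusted p = 3.5e-07 and 5.1e-08). Their TGFb3 rises were 1.42 ± 0.11 and 0.93 ± 0.067 (limma adjusted p = 2.8e-06 and 1.2e-06). In TGFb3 7 keratins rose and 2 fell, with a median of 0.75 beside -0.06. KRT6B rose by 2.72 ± 0.16 (limma adjusted p = 3.7e-07), and by 1.02 ± 0.16 in high calcium (limma adjusted p = 0.00036). KRT15 fell by 2.11 in TGFb3 (limma adjusted p = 1.4e-06). KRT14 rose there by 1.46 ± 0.46 (limma adjusted p = 0.018, range over all alternatives 0.0095 to 0.069). KRT5 was not called in TGFb3, at -0.10 ± 0.058 (limma adjusted p = 0.15). The high calcium rise of KRT14 was 1.73 ± 0.46 (limma adjusted p = 0.0075). KRT6B, KRT16 and KRT17 have close copies in the genome between which reads can be split, so their values are uncertain.

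Other plakins followed DSP only in part. In high calcium 3 of 5 rose and 2 were not called, with a median of 0.27 beside 0.22 for all symbols. That is near the 46.1% of all symbols called higher, and 2 were higher after median ratio rescaling. In TGFb3 3 rose and 2 fell, with a median of 0.26 beside -0.06. PLEC, which links keratins to hemidesmosomes, rose by log2 0.84 ± 0.14 in high calcium and 1.15 ± 0.14 in TGFb3 (limma adjusted p = 0.00048 and 5.6e-05). PPL, periplakin, was at 61.37 ± 0.332 TPM in high calcium, 21.31 ± 1.66 TPM in TGFb3 and 44.14 ± 2.92 TPM in controls. It rose by 0.47 ± 0.065 in high calcium (limma adjusted p = 0.00014), or 0.23 after median ratio rescaling, and fell by 1.02 in TGFb3 (limma adjusted p = 5.6e-07), whereas DSP had positive differences in both.

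Adherens junction genes, the neighbouring cadherin junction, were higher in 6 and lower in 2 of 10 cases in high calcium, with a median of 0.33 beside 0.22, against 46.1% and 17% of all symbols. After median ratio rescaling 4 were higher and 4 lower, against 30.2% and 30%. In TGFb3 9 of 10 rose and none fell, against 26.5% and 33.1% of all symbols, with a median of 0.80 beside -0.06. E-cadherin (CDH1) was at 153 ± 2.83 TPM in high calcium, 182.3 ± 11.5 TPM in TGFb3 and 94.34 ± 7.03 TPM in controls, and P-cadherin (CDH3) rose by log2 0.66 ± 0.076 in high calcium and 1.13 ± 0.076 in TGFb3 (limma adjusted p = 3.7e-05 and 7.9e-07). The high calcium value of CDH3 was 0.42 after median ratio rescaling. Of the 7 hemidesmosome genes, which fix keratins to the basement membrane, all rose in TGFb3, where 26.5% of all symbols did, with a median of 2.20 beside -0.06. In high calcium 5 rose and 1 fell, against 46.1% and 17% of all symbols, with a median of 0.53 beside 0.22. After rescaling 4 were higher and 2 lower, against 30.2% and 30%.

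**Figure D4:**
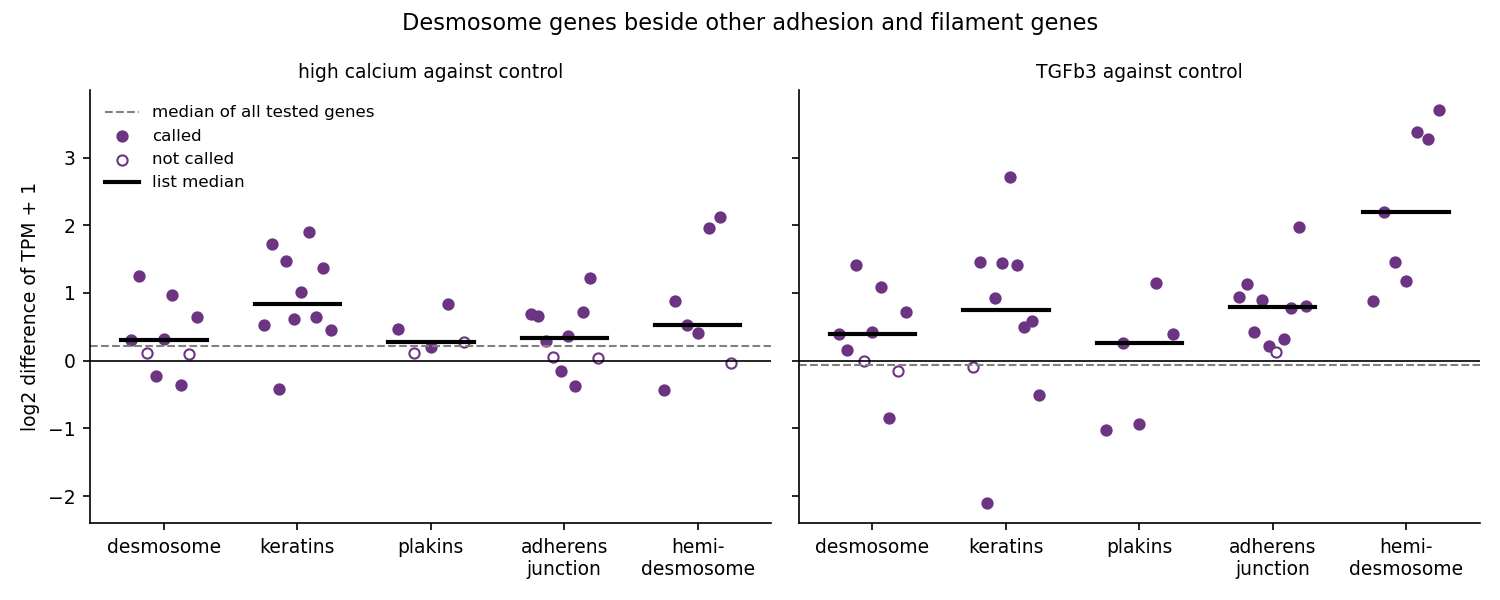
Log2 differences of TPM + 1 of every tested gene in 5 lists, called (filled) or not called (open) by limma, with the list median (bar) and the median of all tested genes (dashed). In TGFb3 the desmosome median of 0.39 lies above that of plakins (0.26) and below those of keratins (0.75), adherens junctions (0.80) and hemidesmosomes (2.20).

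Among 14 transcription factors known to act on epithelial adhesion genes, 13 were tested, and 5 rose and 2 fell in high calcium, with a median of 0.16 beside 0.22, against 46.1% and 17% of all symbols. After median ratio rescaling these counts were 2 and 3, against 30.2% and 30%. In TGFb3 7 rose and 3 fell, with a median of 0.53 beside -0.06, against 26.5% and 33.1% of all symbols. The repressor SNAI2, known to repress desmosomal and cadherin genes, was at 38.91 ± 0.877 TPM in high calcium, 264.8 ± 23.7 TPM in TGFb3 and 50.1 ± 3.84 TPM in controls. SNAI1 had 8.01, 6.71 and 7.58 TPM in TGFb3, against 0.417, 0.641 and 0.603 TPM in controls, a log2 rise of 2.44 ± 0.15 (limma adjusted p = 4.6e-07). KLF4, a factor of epithelial differentiation, rose in both, by 1.86 ± 0.09 in high calcium and 1.61 ± 0.09 in TGFb3 (limma adjusted p = 8.1e-08 and 2.3e-07). GRHL2 was listed at 0 in all samples.

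Of 13 proteases, kinases and calcium pumps known to act on desmosomes 11 were tested. In high calcium 6 rose and 1 fell, with a median of 0.29 beside 0.22, against 46.1% and 17% of all symbols. After median ratio rescaling 5 were higher and 3 lower, against 30.2% and 30%. In TGFb3 9 rose and 1 fell, with a median of 0.36 beside -0.06, against 26.5% and 33.1% of all symbols. ATP2A2, the calcium pump of the endoplasmic reticulum whose mutation disrupts desmosomal adhesion in Darier disease, had 421.8, 419.2 and 403.9 TPM in high calcium, 296.6, 292.4 and 285.8 TPM in TGFb3, and 226.2, 225.6 and 250.2 TPM in controls. Its rise was log2 0.83 ± 0.045 in high calcium and 0.32 ± 0.045 in TGFb3 (limma adjusted p = 1.9e-07 and 0.00017). ADAM17, a protease known to shed DSG2, rose by 0.65 ± 0.05 in high calcium and 0.27 ± 0.05 in TGFb3 (limma adjusted p = 2e-06 and 0.00097), the first of which was 0.41 after rescaling. PRMT1, which methylates the DSP tail, fell by 0.29 in high calcium and by 1.03 in TGFb3 (limma adjusted p = 0.0025 and 4.1e-07), and its high calcium value was -0.53 after rescaling.

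Genes whose 2 log2 differences against control lay nearest to those of a member were taken from 8538 named symbols averaging 10 TPM or more. For DSG3 these were ARRDC3 at a distance of 0.016 log2 units and SLC17A5 at 0.02. DSC2 had FSTL1 at 0.035 and NDST1 at 0.04, and PERP had LAMP2 at 0.0052 and ZFP36L2 at 0.02. The nearest to PKP2 were IDH3A and STAMBPL1, both at 0.0098. These distances describe 3 group means and carry no test.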

How the data were processed

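The authors deposited 1 table of TPM values for 58288 entries in 9 samples. The submitters' processing notes name HISAT2 and hg38. The aligner version, the quantifier, the annotation release and the strand setting were not given in the sources used here, so overlapping genes cannot be told apart by strand. All columns matched a label.

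The 1932 entries sharing 253 symbols were summed. Coordinates come from GENCODE release 29, joined on unversioned Ensembl IDs. Values were tested as log2(TPM + 1), which understates changes of low genes, for 13968 symbols averaging 1 TPM or more, in a limma 3.58.1 model of all 9 samples and 3 groups (R 4.3.3, variance trend, 6 residual degrees of freedom). Calls needed an adjusted p (Benjamini-Hochberg over all symbols, two-sided test) under 0.05. The script was tested on simulated data. Rescalings divided TPM by median ratios over tested genes, equalised quantiles, or left out mitochondrial genes.

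Members and lists were chosen with earlier results of these data known. All members and other desmosome genes are named, with some of the 5 called genes per further list and comparison with the largest absolute difference and the 2 nearest genes of a member. GRHL2, listed at 0, was named after its values were seen. Tables and plots were made with pandas 2.3.3 and matplotlib 3.10.9 under Python 3.11.15.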

Additional observations from a re-analysis of the deposited data

How the results depend on the processing

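Calls and differences of the tested members were recomputed under 19 alternatives, and those of some other named genes under 18 or 19. Counts and medians of the further lists were recomputed under the 3 rescalings only. Shares were recomputed under median ratio rescaling, under quantile normalisation and with each replicate of the group left out. Ranks, levels and nearest genes were not recomputed. Counts of members called stayed within 1.5 times the deposited-scale counts, with these exceptions. In high calcium against control 3 rather than 5 members were called higher after median ratio rescaling. In high calcium against TGFb3 6 rather than 2 were called lower after median ratio rescaling, after quantile normalisation and with mitochondrial genes left out. In TGFb3 against control the lower calls ranged from 1 to 2 with a replicate left out, PKP3 joining without control replicate 1 or TGFb3 replicate 1. The desmoglein share of the cadherins in high calcium was 87.1% after quantile normalisation.

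Of 513 values of members under alternatives, 474 kept direction and side of the threshold, 11 lost a call, 17 gained one and 11 changed sign, of which only PKP3 in high calcium against TGFb3 had been called. For high calcium against control the differences after median ratio rescaling, quantile normalisation and with mitochondrial genes left out were -0.12, -0.10 and -0.08 for DSC2, -0.13, -0.12 and -0.09 for PKP3, and -0.20, -0.13 and -0.16 for PKP4. Under the other alternatives PKP4 ranged from -0.01 (without control replicate 3) to 0.08 (without control replicate 2). The plakin DST was called higher in high calcium at 0.20 as deposited (limma adjusted p = 0.0019). It was -0.04 and not called after median ratio rescaling (limma adjusted p = 0.45). In TGFb3 against control DST fell by 0.93 (limma adjusted p = 5.9e-08). For TGFb3 against control DSC3 was 0.04 and 0.05 after the first 2 rescalings, 0.04 without control replicate 3 and 0.01 without TGFb3 replicate 1. PKP3 in high calcium against TGFb3 was -0.02 after median ratio rescaling. The cause of these changes was not tested.

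Replicate numbers gave no sign of pairing: the 9 same-numbered pairs had correlations of deviations from -0.0747 to -0.00372. The labels do not say what the numbers mark, so a pairing by design is not excluded. With a replicate block the counts of members called higher and lower were 5 and 2 in high calcium, 6 and 1 in TGFb3, and 2 and 2 between the treatments. TPM keeps no depth, so the counting error of low genes such as PKP1 is unknown.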
